A study of Rattus norvegicus with 8 samples.

Results

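Genes of the oxidative stress and p53 responses were followed in the hippocampus of Wistar rats, 10 of the 22601 genes listed in each library. They were found by NCBI GeneID, and comprised 6 genes that the transcription factor Nrf2 is known to switch on (Hmox1, Srxn1, Txnrd1, Gclc, Gclm and Nqo1), the small Maf factor Maff, and 3 genes known as p53 targets (Cdkn1a, Gadd45a and Mdm2). The members were chosen by function and with the FPKM differences between these same groups already known, so their values are given as a description. No p-value is printed for any of them. Whether each passed a call that includes a p threshold is given, but is not read as a test of these genes. RNA was sequenced from 3 Con., 3 PTZ and 2 Q808 rats, 1 library per rat, named here by group and replicate (PTZ-1). Kindling used intraperitoneal pentylenetetrazol (PTZ), a GABA-A receptor blocker that provokes seizures, at 35 mg/kg every 48 h over 28 days (14 injections) with 60 mg/kg as the last dose, in the PTZ and the Q808 rats, while Con. rats had saline. Then Q808, a compound under study against seizures, was gavaged daily at 30 mg/kg for 28 days in the Q808 rats, with solvent in the Con. and PTZ rats. A day later both kindled groups had 1 more PTZ injection at a dose below that which convulses naive rats, so their libraries carry an acute PTZ exposure as well as the kindling, which the Con. libraries lack. Kindling was judged from repeated seizure scores. The rats weighed 180 to 220 g, and their age and sex and the time from the last injection to tissue collection are not given in the sources used here.

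Nrf2 is held in the cytoplasm and degraded through Keap1, and oxidants or electrophiles release it to bind antioxidant response elements as a dimer with a small Maf protein. Its targets make and recycle glutathione and thioredoxin, reduce quinones and break down heme. The factor p53, kept low by the ubiquitin ligase Mdm2, induces cell cycle inhibitors such as p21 (Cdkn1a) after DNA damage and other stress, and in neurons several of these stress genes are also induced by synaptic activity, growth factors and glucocorticoids through other factors.

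Between PTZ and Con., 4 of the 10 genes passed the call (limma, unadjusted p under 0.05 and more than 1.5-fold change), Hmox1, Srxn1, Maff and Cdkn1a, all higher in PTZ. Over the genes tested, 2.53% were called, 1.69% as higher in PTZ, and nothing is read from the members' shares, here or below, because these contrasts were known when they were chosen. None of 15593 genes passed a Benjamini-Hochberg adjusted p of 0.05 in this contrast (limma, 589 at an unadjusted p under 0.05, smallest adjusted p 0.0911). The other 6 genes, which include the glutathione synthesis genes Gclc and Gclm, the thioredoxin reductase gene Txnrd1 and the quinone reductase gene Nqo1, did not pass. Between Q808 and PTZ, 0 of the 10 were called (background 1.92%, limma, 341 genes at an unadjusted p under 0.05 and 0 at an adjusted one). Of the genes called there, 70.7% were higher in Q808, and 47.8% after quantile normalization. Between Q808 and Con., Maff and Cdkn1a were called as higher in Q808, 2 of 10 against a background of 3.46% (3.07% higher). In this contrast 667 genes were at an unadjusted p under 0.05 and 1 at an adjusted one (limma). Of the 10 members, 0 passed the adjusted threshold. Of the genes called there, 88.7% were higher in Q808, 64.2% after quantile normalization. The PTZ values lay wholly above the Con. values for 3 of the 10, Maff, Cdkn1a and Mdm2, and over the genes tested the groups were apart in 9.15%, with PTZ above in 4.11%. Q808 lay wholly above PTZ for 1 of 10, Gclm (15.6% apart, 10.6% with Q808 above), and above Con. for 4 of 10, Nqo1, Maff, Cdkn1a and Mdm2 (20.0% apart, 13.3% with Q808 above).

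**Figure D1:**
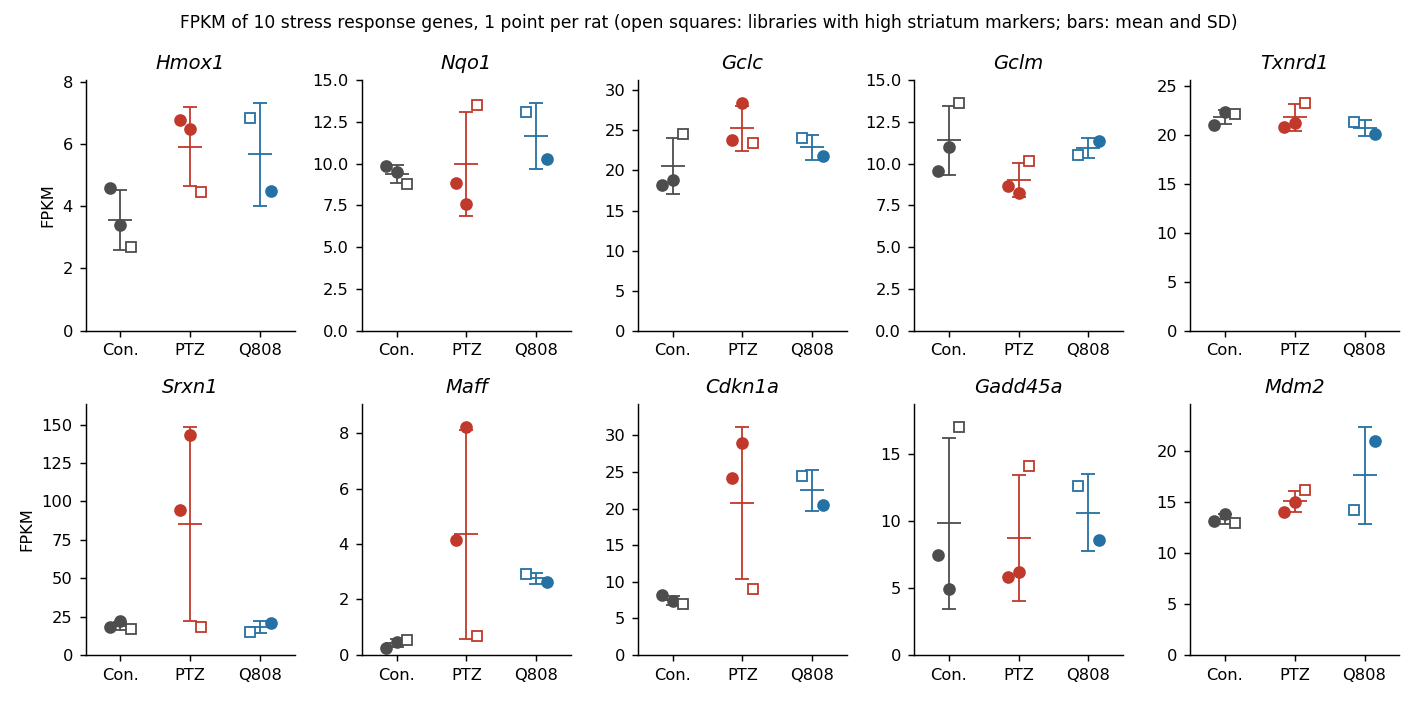
FPKM of the 10 genes in each library (1 point per rat, Con. grey, PTZ red, Q808 blue), with the group mean and SD as bars and open squares for the libraries Con.-3, PTZ-3 and Q808-1. Srxn1 was at 94.8 and 143 FPKM in PTZ-1 and PTZ-2 and at or under 22.1 in the other 6, Maff and Cdkn1a were high in these and in both Q808 libraries, and Gadd45a was highest in the 3 open squares.

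The libraries Con.-3, PTZ-3 and Q808-1 stood apart by the genes of neighbouring tissue, and the members' differences and the counts over the gene lists together are given with and without them. The mean log2(FPKM + 0.1) of 6 striatum markers (among them Drd1, Drd2, Adora2a, Rgs9 and Ppp1r1b) was 6.20 to 7.35 in these 3 libraries and 1.56 to 2.48 in the other 5. The 8 oligodendrocyte markers lay at 8.63 to 9.39 against 7.30 to 7.99, and the 6 dentate granule cell markers at 2.03 to 2.56 against 3.67 to 3.95. Over the 8 libraries the means ran from 6.85 to 7.97 for neuron markers, 0.87 to 2.36 for pyramidal cells, 3.11 to 4.72 for endothelium and 0.09 to 3.25 for meningeal fibroblasts. Of the genes listed as pyramidal cell markers, Fibcd1 lay at 0 to 0.0453 FPKM in the 3 libraries and at 0.159 to 0.340 in the other 5. Spink8 went the other way, with 0.254 to 0.585 FPKM in the 3 and 0 to 0.140 in the other 5, where PTZ-1 had the 0. Since 1 such library fell in each group, the contrasts were also computed in the 5 libraries without them, and as single differences within the 3. The 5 are Con.-1, Con.-2, PTZ-1, PTZ-2 and Q808-2. Any Q808 contrast or call in them, or without the 3 libraries, thus rests on 1 Q808 rat and takes its spread from the other group. Depth per library, judged from the step size of low FPKM values, was 0.853 to 1.19 times that of Con.-1. Whether a lower value meant fewer cells of a type or less RNA per cell cannot be told apart in tissue RNA. The labels do not say more about the animals. A p-value here sets a group difference against the spread between libraries within groups, each of which holds 1 of these 3 when all libraries are used.

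The promoters of 4 genes are shown, those of Srxn1, Maff and Cdkn1a because the results turn on them and that of Gclm as an Nrf2 target with lower values in PTZ than in Con. Sequences are RefSeq windows of the GRCr8 assembly on the gene's strand, ending at position 20 after the annotated start or earlier, where the start is position 1. Capitals mark a match, on either strand, to the antioxidant response element core (TGACNNNGC or TGAGNNNGC), the AP-1 motif (TGANTCA, at which Fos and Jun proteins bind), the cyclic AMP response element (TGACGTCA, at which CREB and its relatives bind) or the p53 half-site.
Srxn1, chr3:161064562-161064831, plus strand: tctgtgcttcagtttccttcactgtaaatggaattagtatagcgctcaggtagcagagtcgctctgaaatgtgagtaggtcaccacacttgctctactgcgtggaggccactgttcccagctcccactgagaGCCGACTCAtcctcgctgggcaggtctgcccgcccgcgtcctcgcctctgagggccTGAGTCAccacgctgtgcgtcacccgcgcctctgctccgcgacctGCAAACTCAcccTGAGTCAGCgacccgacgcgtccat
Maff, chr7:112792537-112792806, plus strand: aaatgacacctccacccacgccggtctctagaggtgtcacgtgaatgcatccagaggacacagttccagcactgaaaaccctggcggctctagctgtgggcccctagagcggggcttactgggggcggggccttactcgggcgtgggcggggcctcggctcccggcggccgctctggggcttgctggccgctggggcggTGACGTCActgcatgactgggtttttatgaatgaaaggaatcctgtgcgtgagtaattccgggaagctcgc
Cdkn1a, chr20:7150682-7150839, plus strand: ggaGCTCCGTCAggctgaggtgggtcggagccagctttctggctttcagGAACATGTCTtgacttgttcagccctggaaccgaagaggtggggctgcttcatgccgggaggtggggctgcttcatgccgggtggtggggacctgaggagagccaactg
Gclm, chr2:213031885-213032154, plus strand: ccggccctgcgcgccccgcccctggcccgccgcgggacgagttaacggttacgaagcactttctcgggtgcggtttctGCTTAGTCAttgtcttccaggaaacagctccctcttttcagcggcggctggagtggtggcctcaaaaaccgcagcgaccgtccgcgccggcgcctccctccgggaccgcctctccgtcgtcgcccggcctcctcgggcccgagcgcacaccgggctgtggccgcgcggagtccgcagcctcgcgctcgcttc
In the Srxn1 window the antioxidant response element core occurred at -118 to -110 and at -17 to -9 on the minus strand and at -5 to 4 on the plus strand. The AP-1 motif stood at -62 to -56 and at -5 to 2, where it lies within the last of these cores. The Maff window held neither, but a cyclic AMP response element at -51 to -44. The Cdkn1a window, which ends earlier because another annotated start of the gene lies upstream, had a core at -247 to -239 and a p53 half-site at -201 to -192. In Gclm the capitals are a core at -172 to -164. A window was at hand for 9 of the 10 genes, all but Hmox1, whose promoter was thus not searched. Among these, 5 held an antioxidant response element core, Srxn1, Gclm, Txnrd1, Cdkn1a and Gadd45a. An AP-1 motif was held by 1 (Srxn1) and a cyclic AMP response element by 1 (Maff). A p53 half-site was held by 4, Cdkn1a, Gadd45a, Gclc and Txnrd1. The windows of Nqo1 and Mdm2 held none of these motifs. In that order of motifs, the shares over 33469 promoter windows of 270 bases were 24.6%, 6.81%, 1.76% and 7.13%. A match is a string of letters and was not tested as a binding site, and the absence of one says only that the letters are not in this window.

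Srxn1, whose product sulfiredoxin restores over-oxidised peroxiredoxins, had the widest gap between libraries among the Nrf2 targets. Its FPKM was 18.1, 22.1 and 16.6 in Con.-1 to Con.-3, 94.8, 143 and 18.0 in PTZ-1 to PTZ-3, and 15.2 and 20.9 in Q808-1 and Q808-2. The gene was thus high in a pair of PTZ libraries, and PTZ-3 and both Q808 libraries lay in or just below the Con. range. Group means were 18.9 ± 2.80 (SD, n = 3), 85.4 ± 63.2 (SD, n = 3) and 18.1 ± 4.04 (SD, n = 2). The PTZ mean was 4.51 times the Con. mean, and the log2 difference was 1.73 (SE 0.70). It was 2.54 in the 5 libraries and 0.12 between PTZ-3 and Con.-3. The call for PTZ against Con. was lost in 9 of the 16 alternatives, among them the omission of any of Con.-1, Con.-2, Con.-3, PTZ-1 or PTZ-2. Between Q808 and PTZ the log2 difference was -1.81 (SE 0.84), not called. It was -2.47 without the 3 libraries, where Q808-2 stood alone, and -2.70 and called without PTZ-3. Q808 and Con. differed by -0.08 (SE 0.21). Its values in Con.-3, PTZ-3 and Q808-1 were below those in the other 5 libraries, by as little as 18.03 against 18.08 FPKM, as they were for 9.59% of the genes tested.

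Only 17 of the 15593 genes (0.109%) had both PTZ-1 and PTZ-2 more than 4 times above the highest of the other 6 libraries, and Srxn1 was among them with 94.8 against 22.1 FPKM, a pattern chosen after its values were seen. The 4 genes with levels most like those of Srxn1 over the 8 libraries were Klf10, Nptx2, Gadd45b and Phf13. Likeness was the root mean square difference of standardised log2(FPKM + 0.1), and came to 0.127, 0.146, 0.176 and 0.179 for them. Klf10 is a TGF-beta-induced transcription factor, Nptx2 an activity-induced synaptic pentraxin, and Gadd45b an activity-induced relative of Gadd45a. Of the other 9 stress genes, the nearest to Srxn1 was Maff at 0.688, rank 517 of the genes compared, and the farthest was Gclm at 1.75, rank 10963. Srxn1 and Gclm both hold the antioxidant response element core in the windows shown (24.6% of all windows). Of the 9 genes with a window, which leave out Hmox1, only Srxn1 holds the AP-1 motif (6.81% of all windows), with a match that lies inside a core. Whether either motif bore on these levels was not tested.

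**Figure D2:**
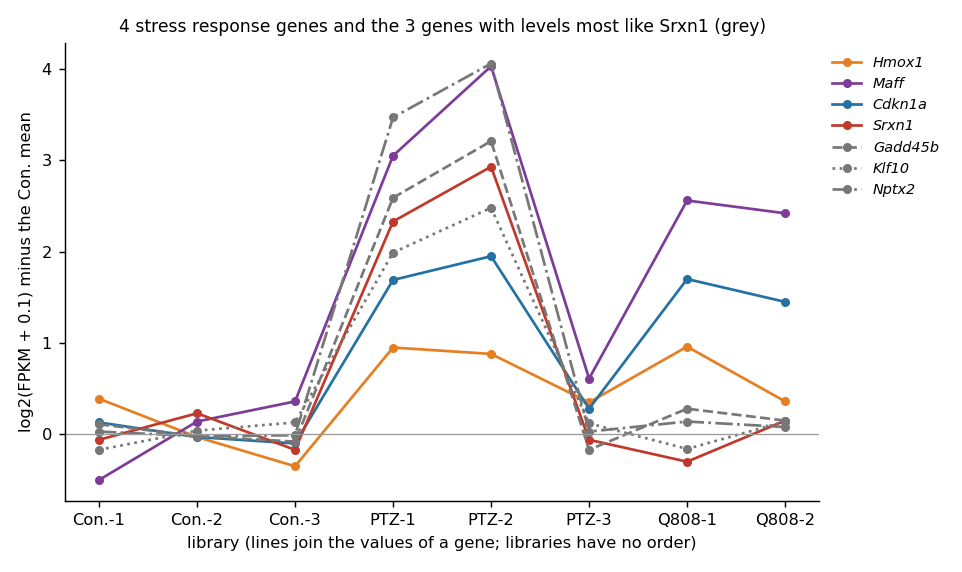
log2(FPKM + 0.1) minus the Con. mean in each library for Hmox1, Maff, Cdkn1a and Srxn1 (coloured) and for Klf10, Nptx2 and Gadd45b (grey), with lines that join the values of a gene across libraries in no order. Srxn1 stood at 2.33 and 2.93 in PTZ-1 and PTZ-2 and between -0.30 and 0.15 in PTZ-3 and the Q808 libraries, beside the grey genes, while Maff and Cdkn1a stayed at 1.45 or above in both Q808 libraries.

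Hmox1 encodes heme oxygenase 1, which breaks heme down to biliverdin, iron and carbon monoxide. Its FPKM was 4.59, 3.40 and 2.70 in the Con. libraries, 6.80, 6.50 and 4.47 in the PTZ libraries, and 6.86 and 4.51 in the Q808 libraries. PTZ-3 lay just under Con.-1, so the groups overlapped. Means were 3.56 ± 0.952 (SD, n = 3) in Con., 5.92 ± 1.27 (SD, n = 3) in PTZ and 5.69 ± 1.66 (SD, n = 2) in Q808. The log2 difference of PTZ and Con. was 0.73 (SE 0.27), 0.74 in the 5 libraries and 0.70 between PTZ-3 and Con.-3, so it had the same size in both sets of libraries. The call was lost without Con.-2, Con.-3, PTZ-1 or PTZ-2, with log2 differences of 0.55 to 0.71. It was also lost at the 2-fold threshold, which 0.73 does not reach. Q808 and PTZ differed by -0.06 (SE 0.31), which was -0.55 in the 5 libraries and 0.61 between Q808-1 and PTZ-3. Q808 and Con. differed by 0.66 (SE 0.32), by 0.19 in the 5 libraries and by 1.31 between Q808-1 and Con.-3, and this was not called.

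Markers of red cells, of microglia, of astrocytes and of border macrophages, macrophages being known for high Hmox1, were summed for comparison. The summed FPKM of 5 erythroid markers was 281 to 714 in Con., 531 to 936 in PTZ and 1351 to 2040 in Q808, and 3 of the 4 tested were called higher in PTZ and 4 of 4 in Q808 against Con. (backgrounds 1.69% and 3.07%). Without the 3 libraries these counts were 2 and 3 of 4 (backgrounds 4.1% and 3.91%). The 6 microglia markers summed to 58.3 to 64.6, 59.9 to 85.7 and 75.1 to 138 FPKM. The 4 border macrophage markers summed to 0.356 to 2.34, 1.675 to 2.23 and 3.90 to 4.24 FPKM, and the 5 astrocyte markers to 659 to 789, 854 to 942 and 765 to 1076 FPKM. Ranges of PTZ and Con. overlapped for all of these sums but that of the astrocyte markers. With the 3 libraries left out, the border macrophage markers had a median log2 difference of -0.41 between PTZ and Con., the microglia markers 0.11, the astrocyte markers 0.18 and the erythroid markers 0.67, beside 0.74 for Hmox1. The part of these cells in the Hmox1 values was not tested. The 4 genes nearest to Hmox1 in level over the libraries were Nab1 (0.240), Edem1 (0.271), Col4a1 (0.280) and the astrocyte filament gene Gfap (0.292), and no other Nrf2 target was among them. Srxn1 had rank 669, Gclc 1534, Nqo1 4196, Txnrd1 9783 and Gclm 12237.

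The remaining Nrf2 targets showed smaller differences. Txnrd1, the cytosolic thioredoxin reductase, was the steadiest of the 10 genes, with 20.1 to 23.3 FPKM over the 8 libraries and a PTZ to Con. ratio of means of 0.998 (SE of the log2 difference 0.12). Gclc, the catalytic subunit of glutamate-cysteine ligase, had 18.2, 18.8 and 24.6 FPKM in Con., 23.8, 28.5 and 23.5 in PTZ, and 24.0 and 21.8 in Q808. It was higher in PTZ than in Con. by 0.30 (SE 0.16) on the log2 scale, by 0.49 in the 5 libraries, and PTZ-3 was not above Con.-3 (-0.07). Its partner Gclm, the modifier subunit, went the other way, with 9.54, 10.97 and 13.7 FPKM in Con., 8.64, 8.25 and 10.2 in PTZ, and 10.5 and 11.4 in Q808. Its log2 difference was -0.32 (SE 0.18) for PTZ and Con. and 0.28 (SE 0.20) for Q808 and PTZ, where both Q808 libraries were above the 3 PTZ ones. The 2 subunits of this enzyme thus differed in the sign of their PTZ and Con. difference over all libraries. Between PTZ-3 and Con.-3 both differences were negative (-0.42 for Gclm). Neither gene passed the call in any alternative. Nqo1, a quinone reductase, had 9.84, 9.51 and 8.81 FPKM in Con., 8.83, 7.56 and 13.5 in PTZ, and 13.1 and 10.3 in Q808. Its PTZ and Con. difference was 0.04 (SE 0.23), -0.24 in the 5 libraries and 0.61 between PTZ-3 and Con.-3. Both Q808 libraries lay above the Con. ones, by 0.30 (SE 0.17) and by 0.09 in the 5 libraries.

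Maff, a small Maf protein that lacks an activation domain of its own and pairs with Nrf2, Bach1 or another Maf, was the lowest of the 10 in Con. and had the widest range. Its FPKM was 0.261, 0.464 and 0.556 in Con., 4.13, 8.22 and 0.679 in PTZ, and 2.91 and 2.63 in Q808. The Con. libraries were below the PTZ and the Q808 ones, although PTZ-3 exceeded Con.-3 by little. Means were 0.427 ± 0.151 (SD, n = 3), 4.34 ± 3.78 (SD, n = 3) and 2.77 ± 0.199 (SD, n = 2). On the log2(FPKM + 0.1) scale, which understates changes of low genes, PTZ was above Con. by 2.56 (SE 0.83), by 3.72 in the 5 libraries and by 0.25 between PTZ-3 and Con.-3. The call was lost without Con.-1, PTZ-1 or PTZ-2. Q808 was above Con. by 2.49 (SE 0.36), 2.60 in the 5 libraries and 2.20 between Q808-1 and Con.-3, a call held in 15 of 15 alternatives. Q808 and PTZ differed by -0.07 (SE 0.94), and by -1.12 in the 5 libraries and 1.95 between Q808-1 and PTZ-3, so the direction differed between the 2 sets. Without PTZ-3 the difference was -1.05 and called. The genes nearest to Maff in level were Limk1 (0.248), Errfi1 (0.248), Nfkbiz (0.255) and Cdkn1a (0.263).

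Cdkn1a encodes p21, the cyclin-dependent kinase inhibitor through which p53 halts the cell cycle. Its FPKM was 8.15, 7.31 and 6.94 in Con., 24.2, 29.0 and 9.05 in PTZ, and 24.5 and 20.5 in Q808. Both Q808 libraries were as high as PTZ-1 and PTZ-2 or near them, and PTZ-3 stood just above the Con. range. Means were 7.47 ± 0.623 (SD, n = 3), 20.8 ± 10.4 (SD, n = 3) and 22.5 ± 2.84 (SD, n = 2). PTZ was above Con. by 1.30 (SE 0.41) on the log2 scale, by 1.77 in the 5 libraries and by 0.38 between PTZ-3 and Con.-3, and the call was lost without PTZ-1 or PTZ-2. Q808 was above Con. by 1.58 (SE 0.17), 1.40 in the 5 libraries and 1.81 between Q808-1 and Con.-3, with the call held in 15 of 15 alternatives. Q808 and PTZ differed by 0.27 (SE 0.49), by -0.37 in the 5 libraries and by 1.43 between Q808-1 and PTZ-3. Nearest in level were Tmem100 (0.159), the inducible nuclear I-kappa-B gene Nfkbiz (0.236), Maff (0.263) and Pla2g3 (0.294). Maff had rank 3 among the 12563 genes compared with Cdkn1a, Hmox1 had rank 46 and Srxn1 429, while Mdm2 had rank 1409 and Gadd45a rank 7547.

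**Figure D3:**
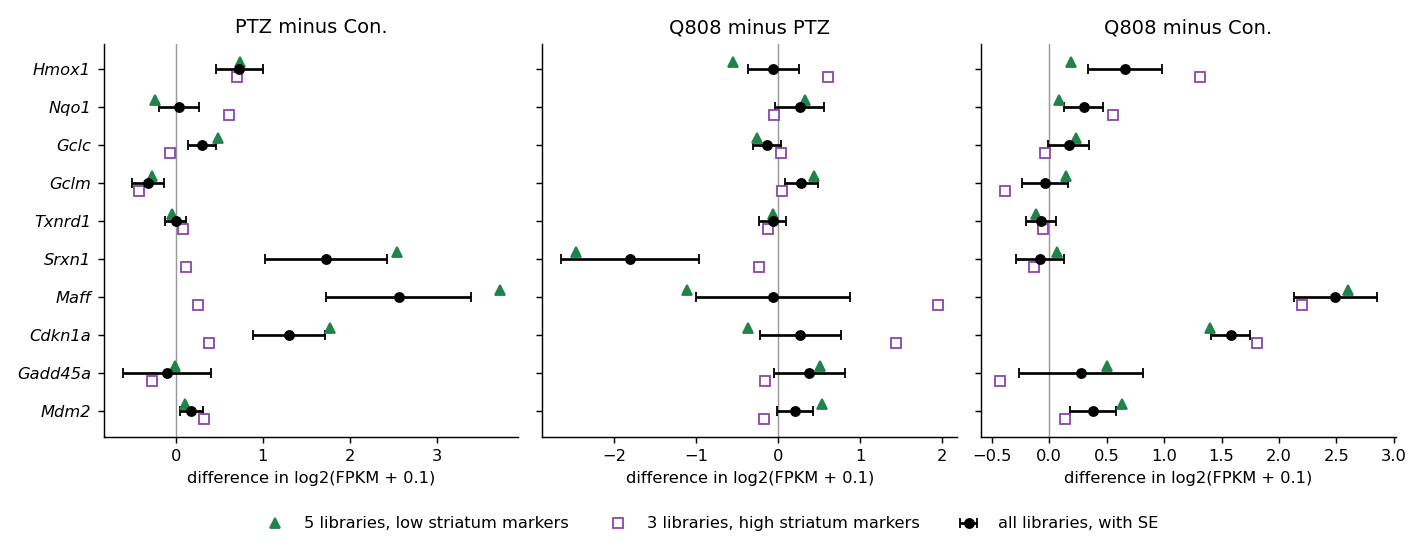
Differences in log2(FPKM + 0.1) of the 10 genes in the 3 comparisons, with all libraries and their SE (black), in the 5 libraries with low striatum markers (green triangles) and as a single difference within the 3 libraries with high ones (open purple squares). For Srxn1, Maff and Cdkn1a the triangles for PTZ minus Con. lie at 2.54, 3.72 and 1.77 and the squares at 0.12, 0.25 and 0.38, whereas for Hmox1 they lie at 0.74 and 0.70.

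The other 2 p53 targets had smaller differences between the groups than Cdkn1a. Mdm2, the ligase that marks p53 for degradation and is itself induced by it, had 13.1, 13.8 and 12.9 FPKM in Con., 14.02, 14.97 and 16.1 in PTZ, and 14.2 and 20.9 in Q808. The values of both PTZ-treated groups lay above those of Con., by 0.18 (SE 0.13) and 0.38 (SE 0.20) on the log2 scale, neither of which was called. Q808-2 alone exceeded the highest PTZ library, and it also had the highest level of the 5 choroid plexus markers (a mean log2(FPKM + 0.1) of 6.41 against 1.23 to 4.89 in the others), whose part in the Mdm2 value was not tested. In the 5 libraries and without Q808-1, Q808-2 was the only Q808 library, and Mdm2 differed between Q808 and Con. by 0.63 and 0.65. Gadd45a, a growth arrest and DNA damage inducible gene, had 7.47, 4.93 and 17.0 FPKM in Con., 5.84, 6.21 and 14.1 in PTZ, and 12.6 and 8.60 in Q808. Its 3 highest values belonged to the 3 libraries with high striatum and oligodendrocyte markers (12.6 to 17.0 against 4.93 to 8.60 in the other 5), as they did for 15.2% of the genes tested. What those cells contributed to Gadd45a was not tested. PTZ and Con. differed by -0.10 (SE 0.51), -0.01 in the 5 libraries. Without PTZ-3 it was called as higher in Q808 than in PTZ, by 0.78.

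**Figure D4:**
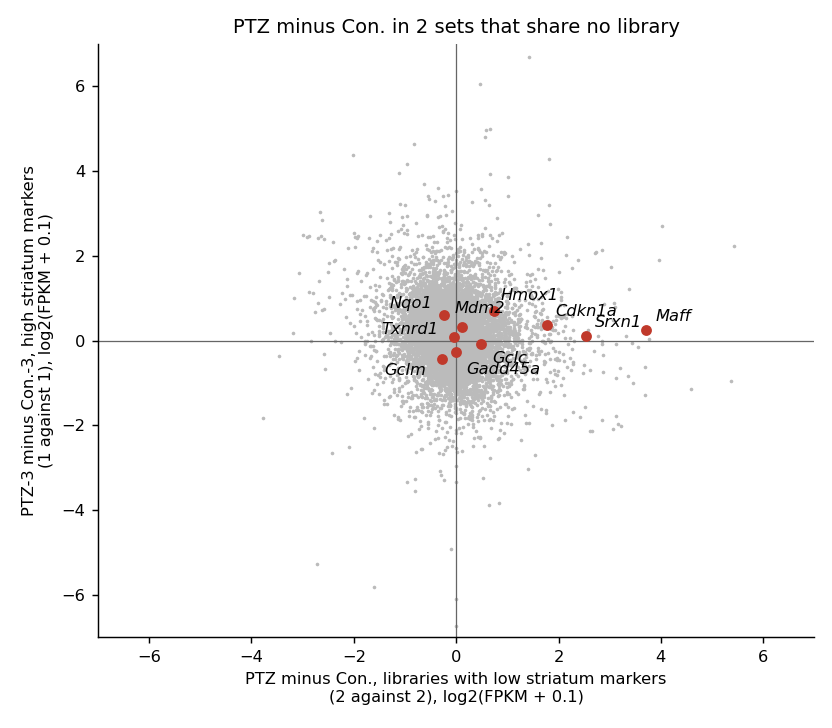
PTZ minus Con. in log2(FPKM + 0.1) for the genes tested (grey) and the 10 stress response genes (red), in the libraries with low striatum markers on the x axis and as PTZ-3 minus Con.-3 on the y axis. Maff, Srxn1 and Cdkn1a lie far to the right and near 0 on the y axis, Hmox1 lies at 0.74 and 0.70, and the other 6 lie near the middle of the cloud.

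Across the 8 libraries, the ratio of the highest to the lowest value ordered the genes as Maff, Srxn1, Cdkn1a, Gadd45a, Hmox1, Nqo1, Gclm, Mdm2, Gclc and Txnrd1. On the log2(FPKM + 0.1) scale the range was 4.53 for Maff, 3.23 for Srxn1 and 2.05 for Cdkn1a. Ranges as wide were found in 0.931%, 2.52% and 8.83% of the 12563 genes whose FPKM averaged 1 or more. For Gadd45a (1.77) and Hmox1 (1.31) the share was 13.1% and 25.4%, and the range of Txnrd1 (0.21) was exceeded or equalled by 99.2%. With the replicate number as a block, the same 4 genes were called between PTZ and Con., while the genes called over all tested went from 395 to 616 (3.95%). In the 5 libraries, 4 of the 10 were called between PTZ and Con., higher in PTZ (background 9.81%, 4.1% higher). Between Q808 and PTZ 1 was, Srxn1 lower in Q808 (9.26%, 2.2% lower), and between Q808 and Con. 3 were, Maff, Cdkn1a and Mdm2, higher in Q808 (4.71%, 3.91% higher).

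The rest of the 2 pathways was taken from 7 lists of textbook members. Of their 92 tested genes, 3 were called higher and 0 lower in PTZ than in Con., 2 higher and 1 lower in Q808 than in PTZ, and 2 higher and 0 lower in Q808 than in Con. Over the genes tested, 2.53%, 1.92% and 3.46% were called in these comparisons. The median log2 differences were 0.04, 0.08 and 0.12, beside -0.04, 0.10 and 0.04 over the genes tested. In the 5 libraries the counts for PTZ against Con. were 6 higher and 2 lower, beside 9.81% called (4.1% higher) over the genes tested. There the Q808 contrasts rest on Q808-2 alone. Their medians were 0.07 against PTZ and 0.05 against Con., beside 0.16 and 0.05 over the genes tested.

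Nrf2 itself (Nfe2l2) was not called in any comparison. Its FPKM was 11.1, 9.11 and 12.1 in Con., 9.58, 8.01 and 16.3 in PTZ, and 16.7 and 11.3 in Q808, highest in the 3 libraries with high striatum markers. Its inhibitor Keap1 (-0.20, SE 0.19, for PTZ minus Con.) and the competing repressor Bach1 (-0.04, SE 0.40) were not called either. Of the 8 Nrf2 regulators and small Maf partners only Mafk, another small Maf, was called, higher in PTZ than in Con. by 0.76 (SE 0.30) and by 0.99 in the 5 libraries, with 2.56, 2.52 and 2.39 FPKM in Con. and 4.16, 6.30 and 2.99 in PTZ. Mafk thus had the library order of Maff within PTZ at a smaller size, and Mafg was not called (0.06, SE 0.18). Between PTZ and Con. none of the 14 further genes of the glutathione and thioredoxin systems, the 18 of NADPH, quinone, heme and iron handling and the 10 of superoxide and peroxide removal was called, with median log2 differences of 0.07, 0.04 and -0.03. In the 5 libraries the count was 0 in these 3 lists as well, with medians of -0.16, -0.09 and -0.13 beside -0.11 over the genes tested. Gpx1, a glutathione peroxidase, was called higher in Q808 than in PTZ by 0.64 (SE 0.20) and by 0.81 in the 5 libraries, with 39.8, 38.7 and 53.8 FPKM in PTZ and 67.5 and 68.9 in Q808. Osgin1, an oxidative stress induced growth inhibitor gene, was called higher in Q808 than in Con. by 1.26 (SE 0.42) and by 1.33 in the 5 libraries, at or under 0.297 FPKM in each library.

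Of the 10 genes listed for the regulation of p53, 0 were called in the 3 comparisons. In the 5 libraries PTZ was higher than Con. for Ppm1d, a phosphatase that dampens p53 signalling (0.80), and lower for the kinase gene Atm (-0.67). Of 26 further p53 targets tested, 0 were called between PTZ and Con. (median -0.06). The call count in the 5 libraries was 2 higher, the polo-like kinases Plk2 (1.35) and Plk3 (1.73), and 1 lower, Perp (-0.78). Plk2 was called lower in Q808 than in PTZ (-1.14, SE 0.39) and Eda2r, a TNF receptor family member, higher (1.19, SE 0.46), Eda2r at 0.621 FPKM or less. Without the 3 libraries Plk2 stayed called (-1.37) and Eda2r was not (1.33). Between Q808 and Con. none of the 26 was called (median -0.02). The list of Gadd45 relatives and CDK inhibitors had 2 of 6 tested genes called higher in PTZ than in Con. These were Gadd45b (1.88, SE 0.79) and Gadd45g (1.66, SE 0.43), and both were called in the 5 libraries too (2.86 and 2.17). Gadd45g was also called higher in Q808 than in Con. (0.98, SE 0.25), a call lost without the 3 libraries (0.87). Gadd45b had 9.02, 8.24 and 7.90 FPKM in Con., 50.9, 78.3 and 7.45 in PTZ and 10.2 and 9.31 in Q808, high in PTZ-1 and PTZ-2 alone, like Srxn1.

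**Figure D5:**
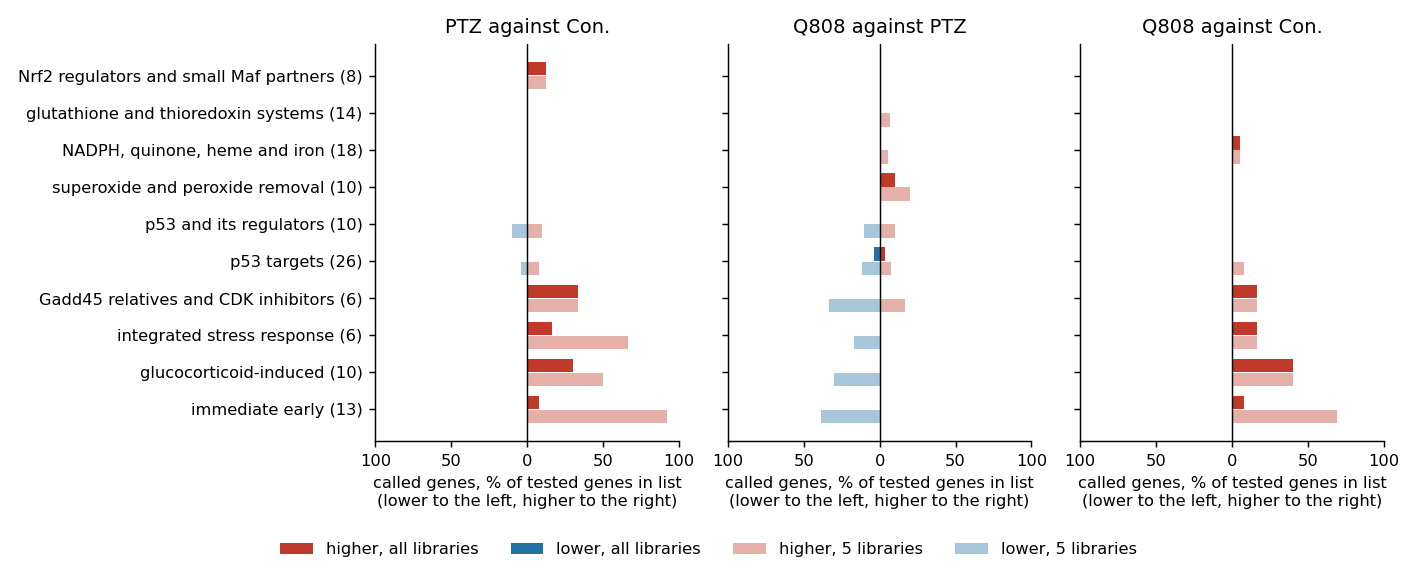
Share of the tested genes of each list (number in parentheses) that were called higher (to the right) or lower (to the left) in the 3 comparisons, with all libraries (dark) and in the 5 libraries with low striatum markers (light). The Nrf2 and p53 target lists show few or no calls, and the immediate early list changes most between the dark and the light bars.

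A further 3 lists, of responses that are known to reach some of these genes, were counted in the same way. Of their 29 tested genes, 5 were called higher in PTZ and 6 in Q808 than in Con., and none lower (backgrounds 1.69% and 3.07% higher). In the 5 libraries 21 and 14 were called higher and none lower (backgrounds 4.1% and 3.91% higher). Between Q808 and PTZ 0 were called (background 1.92%). In the 5 libraries 9 were called lower in Q808 than in PTZ (background 2.2% lower) and 0 higher. Of 6 integrated stress response genes, Atf3 was called higher in PTZ (2.32, SE 0.85) and in Q808 (1.80, SE 0.42) than in Con. Without the 3 libraries, 4 of the 6 were called higher in PTZ. The FPKM of Atf3 was 0.483, 0.469 and 0.787 in Con., 4.95, 9.03 and 0.696 in PTZ, and 1.54 and 3.15 in Q808, so that, as for Maff, PTZ-3 was low and both Q808 libraries were above the Con. range. Of 10 glucocorticoid-induced genes, 3 were called higher in PTZ than in Con., Sgk1 (0.62, SE 0.22), Pdk4 (1.01, SE 0.32) and Nfkbia (0.67, SE 0.28). Between Q808 and Con. the same 3 and Ddit4 were called, Sgk1 by 1.14 (SE 0.37), Pdk4 by 1.61 (SE 0.51), Nfkbia by 1.06 (SE 0.22) and Ddit4 by 0.66 (SE 0.25). Without the 3 libraries 5 of the 10 were called higher in PTZ, Sgk1, Pdk4 and Nfkbia among them (0.95, 1.46 and 1.01), and Ddit4 was no longer called between Q808 and Con. (0.24). Of 13 immediate early genes, which neurons switch on within minutes of firing, only Fosb was called between PTZ and Con. (3.26, SE 1.32) and between Q808 and Con. (1.95, SE 0.63). In the 5 libraries 12 of the 13 were called higher in PTZ, with a median of 1.75, and between PTZ-3 and Con.-3 the median was -1.0. Con.-3 had the highest Con. value of 12 of the 13 genes and PTZ-3 the lowest PTZ value of 12 of them, so both libraries enter that median. Egr1, which like Npas4 below was singled out after its values were seen, was at 148 FPKM in Con.-3 and 30.4 and 41.5 in the other Con. libraries, and at 47.8 in PTZ-3. The exception in PTZ was Npas4, with 1.79, 7.54 and 4.19 FPKM in PTZ-1 to PTZ-3. PTZ-3 was also the PTZ library with the lowest Srxn1, Maff and Cdkn1a values and with high striatum markers, and whether one of these bore on another was not tested.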

How the data were processed

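Hippocampal mRNA of 8 rats was sequenced, and per the study's methods the authors cleaned the reads (Trimmomatic) before FPKM were computed for each gene by Cufflinks. The deposited tables give these FPKM values for 22601 genes per library, together with GO and KEGG annotation that was not used. The submitters' processing notes also name HISAT2 and Bowtie2, and the genome build is not given in the sources used here. The files hold FPKM and no counts, so counting error is unknown and precision rests on the spread between rats.

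Groups came from the labels. Symbols were matched by NCBI GeneID to the RefSeq gene table (20633 genes). The 10 members, the pathway lists, the marker lists and the libraries that stand apart were chosen with earlier results of these data known. Genes whose FPKM averaged 0.1 or more (15593) were fitted on log2(FPKM + 0.1) with limma 3.58.1 in R 4.3.3 (empirical Bayes with a trend), each comparison on its own groups. A call took both a fold above 1.5 and an unadjusted p under 0.05, and adjustment was by Benjamini-Hochberg over these genes. Named genes were the members, the called genes of each list (at most 4), the regulators Nfe2l2, Keap1 and Bach1 (a further one named by the rule is not reported here), and the 4 genes nearest in level to Hmox1, Cdkn1a and Maff. Those nearest to Srxn1, the genes high in PTZ-1 and PTZ-2, and other genes named were chosen after their values were seen. The list gene Cdkn2d had no entry.

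The labels number the replicates. Deviations of same-numbered PTZ and Con. libraries from their group means correlated at 0.309, 0.392 and 0.472 over 12563 genes. Con.-3 and PTZ-3 share high striatum markers, which can give such correlations without pairs, so the check cannot show pairing. The study's methods describe random allocation and no pairs, and the replicate block is given only as an alternative. Alternatives were other pseudocounts, filters, scalings and thresholds, a joint fit, no trend, the replicate block, and the omission of 1 or 3 libraries. They reuse the same rats, so a call held in all of them is not independent support.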

Additional observations from a re-analysis of the deposited data

How the results depend on the processing

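Member values were recomputed 460 times: 445 moved by less than 1 SD between replicates, 15 moved further, and no called value changed sign, although 33 uncalled ones did. Genes called between PTZ and Con. numbered 395, and 191 at a 2-fold threshold, 219 with a pseudocount of 1, 616 with the replicate block and 1530 without the 3 libraries with high striatum markers. For Q808 and PTZ they numbered 300, and 183 at a 2-fold threshold, 193 at a mean FPKM of at least 1, 1894 with the replicate block and 1444 without the 3 libraries. For Q808 and Con. they numbered 540, and 257, 340 with a pseudocount of 1 and 1076 with the block. Members called between Q808 and PTZ rose from 0 to 1 with the 3 groups in one fit (Srxn1), 3 with the replicate block (Srxn1, Maff and Gadd45a) and 1 without the 3 libraries. Between Q808 and Con. the block added Gadd45a. For Q808 the correlations of same-numbered libraries were -0.439 and 0.416 with PTZ, and -0.463 and 0.661 with Con. A block there uses only 2 replicate numbers, whose pairing was not shown, so a gain under it is not read as a larger effect.

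Leaving out 1 library gave 249 to 1135, 132 to 1569 and 279 to 1799 called genes in the 3 comparisons, and 0 to 4, 0 to 3 and 2 to 3 called members. Between PTZ and Con. the 0 members came without PTZ-1 or without PTZ-2. Between Q808 and PTZ 0 members were called with all libraries too, and the 3 members came without PTZ-3. A fit that leaves Q808 with 1 library takes its spread from the other group. The cause of these shifts was not tested, beyond the smaller number of libraries. With 2 or 3 rats a group and no counts, low genes such as Maff and Osgin1 carry an unknown counting error.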

Other observations

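In 56 of 15593 genes (0.359%) PTZ-1 and PTZ-2 were both more than 2 times above the highest of the other 6 libraries, a group chosen after the values were seen. Among them were Bdnf, a neurotrophin (41.7 FPKM or more against at most 7.53), Ptgs2, the inducible cyclooxygenase (82.8 against 14.8), Pcdh8, an activity-regulated protocadherin (176 against 26.0), and Nptx2 (231 against 22.9). The cytokine feedback inhibitor Socs3 (4.69 against 1.15) and the co-chaperones Bag3 (41.5 against 16.0) and Dnajb5 (153 against 65.2) were also in this group. None of the 10 stress response genes other than Srxn1 was.

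Among genes of the 2 pathways, the libraries with high striatum markers differed in other members than Gadd45a. Over the genes tested, 15.2% were above the other 5 libraries in these 3 and 9.59% below. Nfe2l2 (12.1 to 16.7 against 8.01 to 11.3 FPKM), Gstp1, a glutathione transferase (191 to 236 against 105 to 130), and Ftl1, the ferritin light chain (254 to 404 against 199 to 240), were above. The p53 targets Ccng1 (56.7 to 66.5 against 81.2 to 95.3), Sesn2 (2.78 to 3.16 against 5.42 to 12.7) and Tigar (9.26 to 12.9 against 14.5 to 18.8) were below, as was the mitochondrial superoxide dismutase Sod2 (63.5 to 74.4 against 76.1 to 89.1). Apaf1 and Perp were below too. Other p53 targets, Ei24 (53.55 to 60.43 against 40.1 to 48.14) and Fas, were above, as were the p53 regulators Mdm4, Atm, Atr and Hipk2. The genes printed with values are examples picked after these were seen.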
